A study of Mus musculus with 8 samples.

Results

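The interstitial collagen genes of the molar tooth germ are the 10 genes Col1a1, Col1a2, Col3a1, Col5a1, Col5a2, Col5a3, Col6a1, Col6a2, Col6a3 and Col12a1. They were chosen by gene name, and all 10 were found among the 35896 genes of the count table. RNA-seq was done on BRE-GFP mouse molar germs, which carry a fluorescent reporter of BMP signalling, after 1 day of culture in medium with serum. The groups were E12.5 germs with SIS3 (an inhibitor of Smad3), E12.5 germs with SB431542 (which blocks type I receptors for TGF-beta and activin), E13.5 germs with DMSO and E12.5 germs with DMSO, the solvent. The sources used here give no doses, and do not say how many germs went into a library. Each group has 2 deposited columns. In the SB431542, E13.5 DMSO and E12.5 DMSO groups the columns of a pair differed in total by 298, 656 and 260 counts, less than the 5307, 4186 and 5566 counts that a random split of 1 set of reads gives as its SD, so each pair was summed and counted as 1 sample. Over the 10 members the mean squared difference between paired columns was 7.32, 3.02 and 2.41 times that of such a split, against 370.0 for the SIS3 columns (9 members), so the members of a pair differed by more than the sampling noise. The SIS3 columns differed in total by 44.5% and were kept as 2 libraries. Totals were 5995709 and 9427262 counts for the SIS3 libraries, 28161788 for SB431542, 17519118 for E13.5 DMSO and 30975010 for E12.5 DMSO. The SIS3 libraries come from a TruSeq RNA v2 preparation and the others from a SMARTer Universal Low Input preparation, so inhibitor and kit cannot be told apart in any SIS3 value below. The SIS3, SB431542 and E13.5 groups are all set against the same E12.5 DMSO library.

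Collagens are triple helices of 3 alpha chains, and the interstitial types make up the fibrous matrix between mesenchymal cells. Types I and III form the bulk of the fibrils, type V is built into them and limits their diameter, type XII binds to their surface, and type VI forms a separate network of beaded filaments around cells. TGF-beta, acting through Smad2 and Smad3, is a known inducer of type I and type III collagen genes.

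Promoter sequences are shown because Smad3 binds DNA at a short element, CAGAC, and because one inhibitor acts on Smad3 and the other upstream of it. RefSeq promoters (GRCm38.p6) were at hand for 7 of the 10 genes, with 2 for Col6a2, and the 250 bases before each start site were searched on both strands. CAGAC was found in 5 of these 8 windows, against 42.2% of 32851 mouse promoters. The CCAAT box, known from the type I collagen promoters as a binding site of the factor NF-Y, was found in 2 of 8, against 33.8% of all promoters. The 3 windows below are those with 2 copies of CAGAC (Col3a1 and Col6a3) and that of Col5a3, which has none. The window of Col6a1 and 1 of the 2 windows of Col6a2, not shown, have none either. Capitals mark CAGAC or CCAAT on either strand (GTCTG and ATTGG are the other strand), and these matches do not overlap each other.
Col3a1 (chr1:45311288-45311537, plus strand): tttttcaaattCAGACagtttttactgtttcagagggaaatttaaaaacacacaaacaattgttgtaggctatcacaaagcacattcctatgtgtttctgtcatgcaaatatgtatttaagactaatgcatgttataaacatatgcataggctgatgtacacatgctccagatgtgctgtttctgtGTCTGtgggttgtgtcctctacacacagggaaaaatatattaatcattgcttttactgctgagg
Col6a3 (chr1:90843972-90844221, minus strand): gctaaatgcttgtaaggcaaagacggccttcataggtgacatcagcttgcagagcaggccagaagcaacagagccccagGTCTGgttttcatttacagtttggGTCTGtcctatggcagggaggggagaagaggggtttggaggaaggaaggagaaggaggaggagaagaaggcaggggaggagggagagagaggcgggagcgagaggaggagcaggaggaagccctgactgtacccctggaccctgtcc
Col5a3 (chr9:20815068-20815317, minus strand): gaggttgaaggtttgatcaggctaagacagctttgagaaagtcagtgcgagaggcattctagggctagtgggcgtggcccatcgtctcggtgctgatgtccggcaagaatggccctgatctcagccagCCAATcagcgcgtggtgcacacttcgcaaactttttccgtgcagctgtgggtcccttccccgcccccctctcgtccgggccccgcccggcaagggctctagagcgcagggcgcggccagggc
A match in these letters is a description and not a site of binding.

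In E12.5 germs with DMSO the 10 genes together took 1.74% of all counts. Col3a1 was the 4th and Col1a1 the 6th most counted gene of that library. Levels are given as CPM, which divides counts by the library total. To compare chains, CPM were divided by the length of the gene model in kilobases. On that scale Col3a1 led with 831 per kilobase, followed by Col1a1 with 562 and Col1a2 with 484. The type VI chains came next, Col6a3 at 276 per kilobase, Col6a2 at 210.1 and Col6a1 at 131, interleaved with Col5a2 at 152 and Col5a1 at 136. Col12a1 stood at 70.6 per kilobase. Col5a3, a minor chain of type V collagen, stood at 0.554 per kilobase. These are single values of 1 library, so neighbours such as Col5a1, Col6a1 and Col5a2 cannot be ordered beyond their spread. In CPM, 9 genes lay between 539 (Col6a1) and 4626 (Col3a1), and Col5a3 lay at 3.39.

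**Figure D1:**
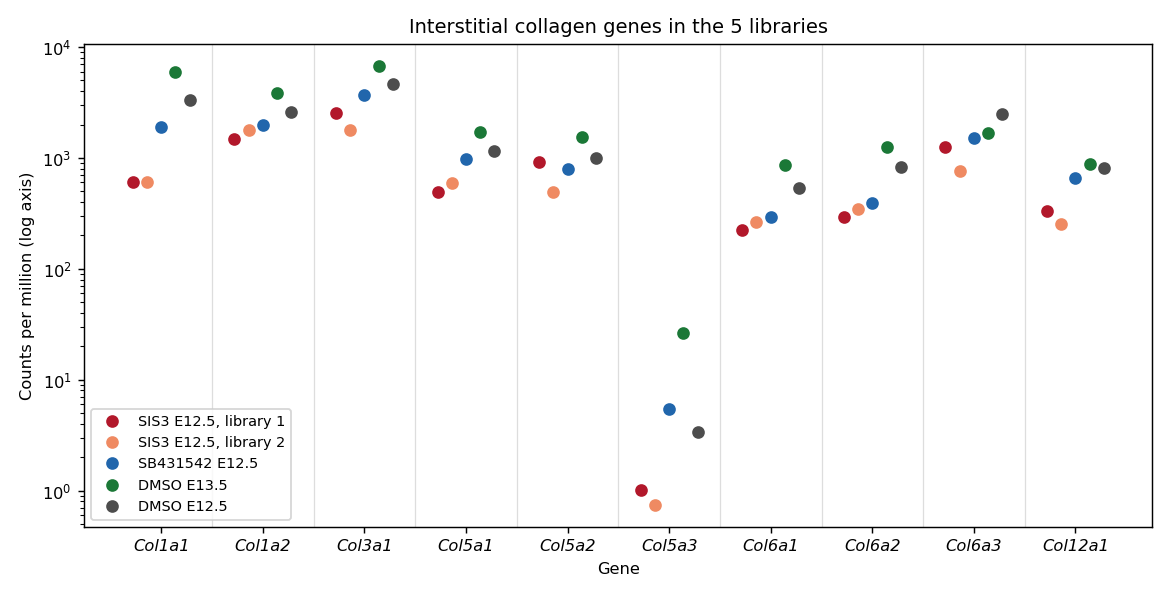
CPM (log axis) of the 10 interstitial collagen genes, with 1 point for each library. Both SIS3 points lie below the E12.5 DMSO point for every gene, and the Col5a3 points, between 0.743 and 26.3 CPM, lie far below those of the other genes.

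The germs carried the labelled tissue's markers. All 11 dental mesenchyme markers (such as Msx1, Pax9 and Barx1) were detected in every library. Their summed level was 4283 and 3688 CPM with SIS3, 5117 with SB431542, 4323 at E13.5 and 5198 in E12.5 DMSO. In E12.5 DMSO that sum rested most on Prrx1 at 1478, Vim at 974 and Pdgfra at 710 CPM. Msx1, Pax9 and Barx1 stood at 472, 363 and 289 CPM there. Dental and oral epithelium markers summed to 70.7 and 316 CPM with SIS3, 53.0 with SB431542, 248 at E13.5 and 177 in E12.5 DMSO. Of these 10 markers 1, Shh, was at 0 in SIS3 library 1 and in the E13.5 library, and at most 0.318 CPM elsewhere. Since whole germs were sequenced, fewer cells of a type and less RNA per cell cannot be told apart.

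Of the type I and type III chains, Col1a1 was the furthest below DMSO in the SIS3 libraries, and its partner Col1a2 did not pass the test. Col1a1 (ENSMUSG00000001506; GRCm38 chromosome 11, 94936224 to 94953042, plus strand) encodes the alpha1 chain, of which the usual type I trimer holds a pair. It stood at 610.4 and 606 CPM in the SIS3 libraries, 1896 CPM with SB431542, 5982 CPM at E13.5 and 3334 CPM in E12.5 DMSO. The SIS3 libraries were thus the lowest and nearly equal, the SB431542 library was lower than DMSO, and the E13.5 library was the highest. Col1a2 (chromosome 6, 4504814 to 4541544, plus strand), which encodes the single alpha2 chain of that trimer, stood at 1473 and 1773 CPM with SIS3, 1987 CPM with SB431542, 3882 CPM at E13.5 and 2589 CPM in E12.5 DMSO. It had the same order of groups over a narrower range. Col3a1 (chromosome 1, 45311538 to 45349706, plus strand), whose product forms trimers of 3 identical chains, stood at 2541 and 1802 CPM with SIS3, 3669 CPM with SB431542, 6753 CPM at E13.5 and 4626 CPM in E12.5 DMSO.

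Col1a1 fell 5.76-fold with SIS3 against DMSO at E12.5, with a log2 fold change of -2.53 (SE 0.25, 95% confidence interval -3.06 to -1.99, n = 2 against 1, adjusted p = 6.41e-05 by edgeR's quasi-likelihood F test, adjusted by the Benjamini-Hochberg method over the 19022 genes tested). Col1a2 had -0.75 (SE 0.26, interval -1.30 to -0.20) and did not pass. The confidence intervals of these chains of 1 trimer do not overlap. Per kilobase, Col1a1 stood at 0.374 and 0.308 of Col1a2 in the SIS3 libraries, at 0.861 with SB431542, at 1.39 at E13.5 and at 1.16 in E12.5 DMSO. Col3a1 fell by 1.16 on the log2 scale (SE 0.27, adjusted p = 0.0335), and its level per kilobase was 4.44 and 3.17 times that of Col1a1 with SIS3, against 1.48 times in E12.5 DMSO.

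**Figure D2:**
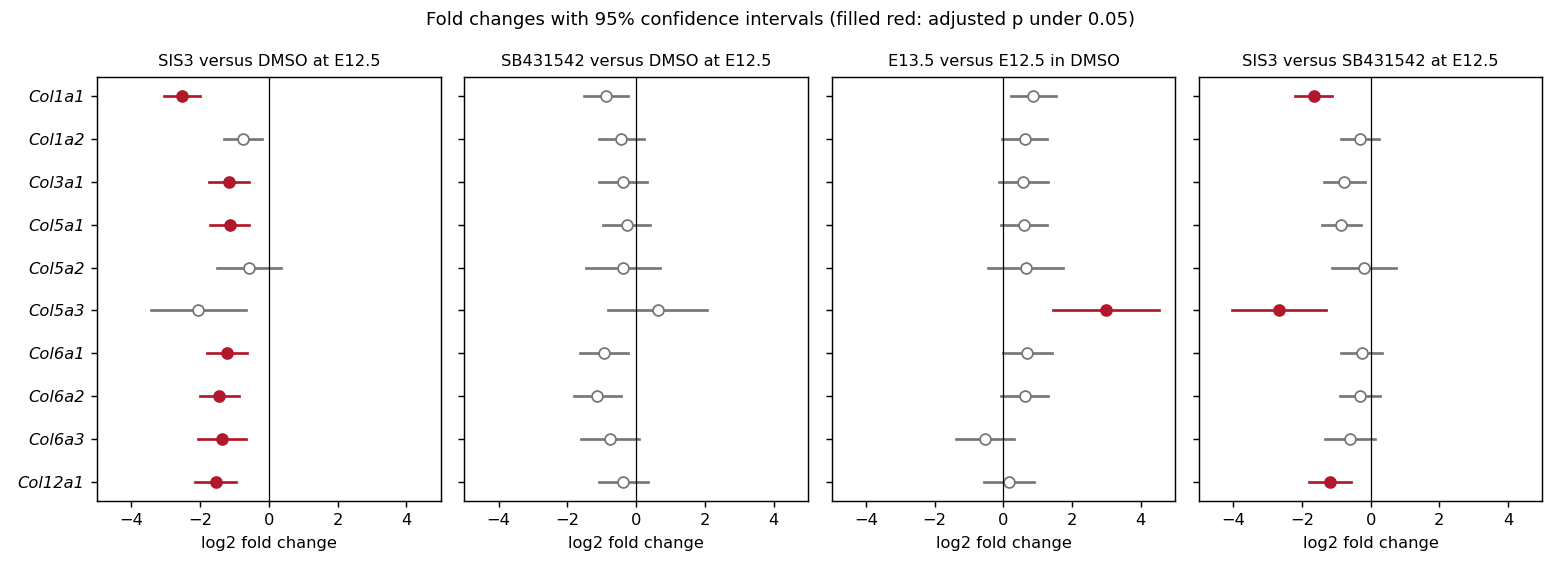
The log2 fold change of each interstitial collagen gene (points) with its 95% confidence interval (lines) in 4 comparisons, the first-named group over the second. In SIS3 against DMSO 7 genes passed, with Col1a1 at -2.53 the lowest, and in SB431542 against DMSO none passed.

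Over all 10 genes the SIS3 libraries lay below DMSO, and 7 genes fell while 0 rose, against 3.03% of all genes called lower and 0.794% called higher. The median log2 fold change of the 10 was -1.29, against 0.00 over all genes tested. Beside Col1a1 and Col3a1, the type VI chains Col6a1, Col6a2 and Col6a3, the type V chain Col5a1 and Col12a1 fell. The members were chosen with earlier results of these data known, so the count describes them and is no separate evidence. The calls of 6 of the 7, all but Col1a1, rest on the settings: after removal of GC and length trends Col1a1 and Col12a1 were called, with the 3 libraries of the 2 groups alone Col1a1, Col6a2 and Col12a1, and with the test limited to genes averaging at least 5 CPM, Col1a1. Col1a1 was called in every alternative to this comparison that has a test, with adjusted p values up to 0.00974.

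The type VI chains Col6a1, Col6a2 and Col6a3 all fell with SIS3. Col6a1 (chromosome 10, 76708792 to 76726168, minus strand), one of the shorter chains of type VI, stood at 223 and 267 CPM with SIS3, 291 CPM with SB431542, 857 CPM at E13.5 and 539 CPM in E12.5 DMSO. Col6a2, encoded beside it on chromosome 10 (76595762 to 76623630, minus strand), stood at 295 and 345 CPM with SIS3, 394 CPM with SB431542, 1248 CPM at E13.5 and 829.6 CPM in E12.5 DMSO. These neighbouring genes had the most alike profiles of the 45 pairs of members, with a root mean square difference of 0.0934 between their centred log2 CPM over the 5 libraries. Col6a3 (chromosome 1, 90765923 to 90843971, minus strand), the large chain needed for the assembly of the type VI heterotrimer, stood at 1258 and 764 CPM with SIS3, 1523 CPM with SB431542, 1669 CPM at E13.5 and 2481 CPM in E12.5 DMSO. With SIS3 against DMSO the log2 fold changes were -1.21 for Col6a1 (SE 0.27, adjusted p = 0.0251 in edgeR's test), -1.45 for Col6a2 (SE 0.27, adjusted p = 0.00786) and -1.36 for Col6a3 (SE 0.32, adjusted p = 0.0442).

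Col6a3 stood apart from its partner chains at E13.5. It was the one member below its E12.5 level, with a log2 fold change of -0.54 (interval -1.39 to 0.31), where Col6a1 had 0.70 (interval 0.00 to 1.40) and Col6a2 0.62 (interval -0.07 to 1.31). None of the 3 passed. Per kilobase, Col6a3 stood at 0.887 of Col6a1 at E13.5, against 2.10 in E12.5 DMSO. Between the SIS3 libraries the same ratio was 2.57 and 1.30, so it varied by about as much within a pair treated alike. The ratio of Col6a1 to Col6a2 stayed between 0.626 and 0.745 over all 5 libraries.

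Type V collagen and type XII collagen accompany the main fibrils. Col5a1 (chromosome 2, 27886425 to 28039514, plus strand), the defining chain of type V, stood at 497 and 599 CPM with SIS3, 979 CPM with SB431542, 1703 CPM at E13.5 and 1146 CPM in E12.5 DMSO. It fell with SIS3 by 1.14 on the log2 scale (SE 0.26, adjusted p = 0.0295 in edgeR's test). Col5a2 (chromosome 1, 45374321 to 45503282, minus strand), the second chain of the trimer, stood at 919.7 and 489 CPM with SIS3, 801 CPM with SB431542, 1547 CPM at E13.5 and 1005 CPM in E12.5 DMSO. SIS3 library 1 thus lay near DMSO and library 2 well below it, and the log2 fold change of -0.58 (SE 0.39, interval -1.50 to 0.34) did not pass. Col12a1 (chromosome 9, 79598991 to 79718831, minus strand), whose product links fibrils to their surroundings, stood at 330.4 and 253 CPM with SIS3, 653 CPM with SB431542, 889.8 CPM at E13.5 and 812 CPM in E12.5 DMSO. It fell with SIS3 by 1.55 (SE 0.28, adjusted p = 0.00739). At E13.5 it had 0.16 (interval -0.56 to 0.88).

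The 2 SIS3 libraries differed in several of these genes. The log2 ratio of library 2 over library 1 ran from -0.96 for Col5a2 and -0.76 for Col6a3 to 0.22 for Col1a2 and 0.23 for Col5a1. Library 2 was lower for Col5a2, Col6a3, Col3a1 and Col12a1, whose gene models hold 48.3% to 54.3% GC, and higher for Col1a2, Col5a1, Col6a1 and Col6a2, which hold 55.7% to 59.8%. Col1a1 (58.9%) and Col5a3 (61.6%, with 6 and 7 counts) were lower in library 2 by 0.05 and 0.49. Across the 10 genes the ratio and the GC content had Pearson's r = 0.552, a description over genes that share the same pair of libraries. Over genes averaging at least 20 CPM, the median ratio was -0.16 for 2269 genes of up to 45% GC and 0.25 for 350 genes above 60%. The median size of the ratio was 0.33 for the 10 members and 0.27 for 8546 genes at that level. Marker sums also differed between SIS3 libraries 1 and 2. Chondrocyte markers summed to 166 and 783 CPM, epithelial markers to 70.7 and 316, erythroid markers to 1315 and 604, and dental mesenchyme markers to 4283 and 3688. The parts of base composition and of tissue content in these differences were not tested.

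**Figure D3:**
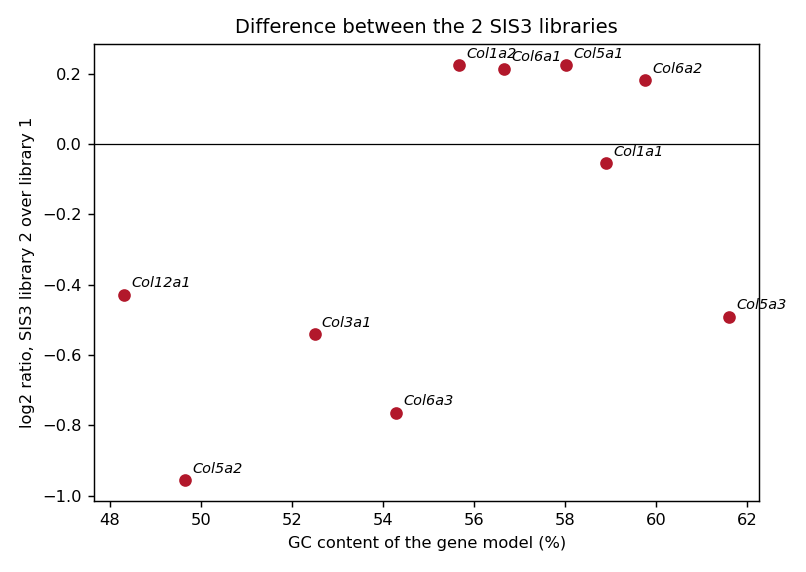
The log2 ratio of SIS3 library 2 over SIS3 library 1 (vertical axis) against the GC content of the gene model in percent (horizontal axis), with 1 point for each of the 10 genes. Col5a2, at -0.96, and Col6a3, at -0.76, lie lowest, and 4 genes between 55.7% and 59.8% GC lie above 0.

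With SB431542, 9 of the 10 genes lay below DMSO and none passed the test. Type VI chains and Col1a1 were the lowest: the log2 fold change was -1.13 for Col6a2 (SE 0.32, interval -1.82 to -0.44), -0.94 for Col6a1 (SE 0.33, interval -1.64 to -0.24), -0.87 for Col1a1 (SE 0.30, interval -1.51 to -0.22) and -0.76 for Col6a3 (SE 0.38, interval -1.61 to 0.09). The other fibril genes lay closer to DMSO, with Col1a2 at -0.43, Col3a1 at -0.39, Col5a2 at -0.38, Col12a1 at -0.37 and Col5a1 at -0.28. Both libraries of this comparison were made with the same kit, and each group is 1 library. edgeR's quasi-likelihood test called 0 of the 10 and 0 of 19022 genes (0%), and the lowest adjusted p of any gene was 0.272. At an unadjusted p under 0.05 there were 3 members, all lower (Col1a1, Col6a1 and Col6a2), beside 0.668% of all genes lower and 0.568% higher, and DESeq2 called 0 of the 10 and 6 of all genes. The median over the 10 was -0.41, against 0.0016 over all genes.

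SIS3 was also set against SB431542 directly, which does not involve the shared DMSO library but holds the kit. All 10 genes were below their SB431542 level and 3 fell, against 1.95% of all genes called lower and 0.499% higher: Col1a1 by 1.66 on the log2 scale (SE 0.25, adjusted p = 0.00283 in edgeR's test), Col12a1 by 1.18 (SE 0.28, adjusted p = 0.0442) and Col5a3 by 2.68 (SE 0.64, adjusted p = 0.0442). For the type VI chains Col6a1 and Col6a2 the differences were -0.27 (interval -0.87 to 0.33) and -0.32 (interval -0.91 to 0.27), and these intervals leave room for either direction. Col1a2 had -0.31 (interval -0.87 to 0.25). With trends on GC content and length removed none of the 3 was called, and the adjusted p of Col1a1 was 0.0543. Without SIS3 library 2 the value of Col5a2, -0.20 with both libraries, was 0.20.

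At E13.5, 9 of the 10 genes lay above E12.5 in DMSO and 1 rose, Col5a3, against 4.06% of all genes called higher and 1.17% lower. Col1a1 had a log2 fold change of 0.87 (SE 0.30, interval 0.23 to 1.52), Col5a2 0.65, Col1a2 0.62, Col5a1 0.60 and Col3a1 0.58, each below the threshold of the test (adjusted p between 0.102 and 0.444). The median over the 10 was 0.62, against -0.00075 over all genes and -0.15 over genes averaging at least 20 CPM. The summed counts of the 10 made up 2.46% of the E13.5 library, against 1.74% of the E12.5 library. With 1 library in each group, the fit borrows its spread from the SIS3 pair.

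Col5a3 (chromosome 9, 20770050 to 20815067, minus strand) was the rarest member and the one with the widest range. It stood at 1.00 and 0.743 CPM with SIS3, 5.43 CPM with SB431542, 26.3 CPM at E13.5 and 3.39 CPM in E12.5 DMSO. These values rest on 6 and 7, 153, 460 and 105 counts. At E13.5 its log2 fold change was 2.98 (SE 0.71, adjusted p = 0.0312 in edgeR's test), a ratio of 7.91 with a counting interval of 6.39 to 9.88. The call was lost without either E13.5 column (adjusted p = 0.067 and 0.0512 in edgeR's test) and in 3 other settings, and DESeq2 gave an adjusted p at the threshold. The E13.5 library also gave 2.01% of its counts to olfactory and vomeronasal receptor genes, against 0.537% in E12.5 DMSO, and without such genes, predicted genes and pseudogenes in the fit Col5a3 was not called; the part of this in the Col5a3 value was not tested. With SB431542 it was the one member above DMSO, at 0.63 (interval -0.82 to 2.08), and with SIS3 it had -2.05 (interval -3.44 to -0.66), neither of which passed.

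The make-up of the collagen transcripts differed between libraries in the balance of Col1a1 and Col1a2. Of the level per kilobase summed over the 10 genes, Col1a1 held 7.74% and 8.80% with SIS3, 16.1% with SB431542, 24.2% at E13.5 and 19.7% in E12.5 DMSO. Col1a2 held 20.7% and 28.5% with SIS3, 18.7% with SB431542, 17.4% at E13.5 and 17.0% in E12.5 DMSO. Both chains of type I together held 28.4% and 37.3% with SIS3, 34.8% with SB431542, 41.5% at E13.5 and 36.7% in E12.5 DMSO, so the SIS3 libraries lay on either side of DMSO. The share of Col3a1 ran from 27.9% to 34.3%, that of type V from 10.1% to 14.9%, and that of type VI from 17.0% to 21.6%. Type XII held between 1.85% and 2.86%. Shares sum to the whole, so a lower share of one chain raises the others.

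**Figure D4:**
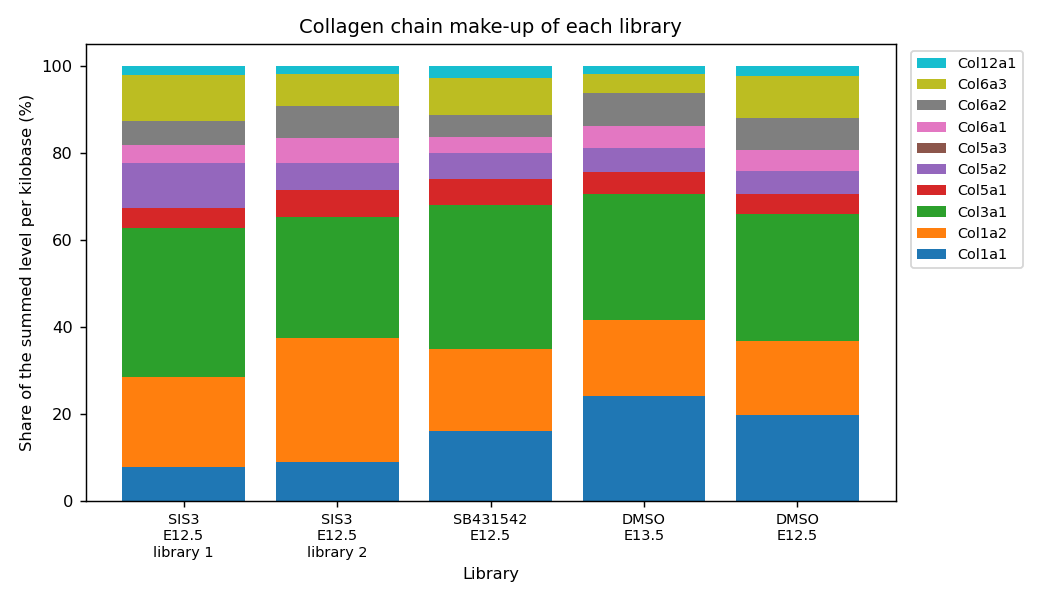
Share of each gene, in percent, in the level per kilobase summed over the 10 interstitial collagen genes, with 1 stacked bar for each library. The Col1a1 part is 7.74% and 8.80% in the SIS3 libraries and 19.7% in E12.5 DMSO, and Col5a3 is too small to see.

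Other collagen chains moved with SIS3 in part. Of 34 listed chains 33 were tested, and 6 fell and 1 rose, with a median of -0.88. Over all genes, 3.03% were called lower and 0.794% higher with SIS3, and these shares stand beside the SIS3 counts of the lists and markers below too. Col28a1 was at 0 in both SIS3 libraries and Col4a3 in the E13.5 library, and with each at its bound of 3 counts over the group the medians were the same. The short-chain collagen gene Col8a2 had -1.96 (SE 0.30), Col16a1, a fibril-associated type, -1.82 (SE 0.28), and the transmembrane type Col13a1 -2.17 (SE 0.35). The basement membrane chains Col4a1 and Col4a2 fell by 1.51 and 1.49, and the type VI chain Col6a6 by 2.58. Col20a1, of a fibril-associated type, rose by 3.56 (SE 0.78), at 8.34 and 24.7 CPM with SIS3 against 1.32 CPM in DMSO. With SB431542 none of the 33 passed (median -0.29, Col4a1 -0.34, Col11a1 -0.60). At E13.5 2 of the 33 rose, Col20a1 by 4.10 and Col22a1 by 2.41 (median 0.64), where 4.06% of all genes were called higher.

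Genes that crosslink, trim and fold collagen fell in part with SIS3. Of 13 genes of propeptide removal and crosslinking 6 fell, with a median of -1.33: the lysyl oxidase genes Loxl1 (-4.17, SE 0.33), Lox (-2.10, SE 0.28) and Loxl2 (-1.27, SE 0.28), which crosslink fibrils, the propeptidase genes Adamts2 (-1.81, SE 0.38) and Adamts14 (at most 7.21 CPM with SIS3, against 21.6 CPM in DMSO), and Loxl4, at 0.334 and 0 CPM with SIS3 against 2.78 CPM in DMSO. Of 29 genes of hydroxylation, folding and export 3 fell, with a median of -0.53: Creb3l1, which encodes a factor known to induce Col1a1 in mouse osteoblasts (-2.49, SE 0.37), Sparc, which encodes a collagen-binding matrix protein (-2.07, SE 0.28), and Tmem38b, an endoplasmic reticulum channel gene (-7.20, SE 0.30). Tmem38b stood at 18.2 and 18.1 CPM in the TruSeq libraries of SIS3, against 2442 CPM with SB431542, 2215 CPM at E13.5 and 2538 CPM in E12.5 DMSO, all SMARTer libraries. Serpinh1, which encodes the collagen chaperone Hsp47, had -0.14. The lists were not tested against each other.

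Genes around the fibril were lower in part as well. Of 12 collagen receptor and uptake genes 3 fell with SIS3 (median -0.82): Itga2 (-3.23, SE 0.52) and Itga1 (-2.30, SE 0.54), which encode collagen-binding integrin chains, and Ctsk (-2.17, SE 0.39), encoding a collagen-degrading protease. Of 13 tested fibril-associated matrix genes 4 fell (median -1.06): Thbs2 (-3.49, SE 0.36), Mfap2 (-1.98, SE 0.34), the proteoglycan gene Bgn (-1.60, SE 0.30) and Emilin1 (-1.16, SE 0.29). Of 23 collagen gene regulators 3 fell (median -0.12): Sp7, the osteoblast factor osterix (-3.34, SE 0.33), Tgfb1 (-2.48, SE 0.38) and the receptor gene Tgfbr2 (-1.33, SE 0.31). With SB431542 and at E13.5 no gene of these 5 lists passed. The medians with SB431542 were -0.38 for folding and export, -0.16 for maturation, -0.16 for receptors, -0.44 for fibril-associated matrix and -0.11 for regulators. At E13.5 they were -0.17, 0.44, 0.35, -0.07 and -0.13 in the same order. Against SB431542 in place of DMSO, the chains Col4a1, Col6a6, Col13a1 and Col16a1, and Tmem38b, Creb3l1, Sparc, Loxl1, Loxl2, Itga2, Thbs2, Sp7, Tgfb1 and Tgfbr2 fell with SIS3, from -1.17 for Col4a1 to -7.09 for Tmem38b. Col20a1 and Aspn, a small proteoglycan gene, were higher with SIS3 than with SB431542 by 3.71 and 1.76. Aspn stood at 16.2 and 19.2 CPM with SIS3, 5.15 CPM with SB431542 and 35.5 CPM in E12.5 DMSO, so its SIS3 levels lay below DMSO. The 2 genes of each of these lists with the highest mean CPM over the 5 libraries were Fn1 (-0.38 with SB431542 and 0.14 at E13.5), Postn (-0.27 and 0.16), Serpinh1 (-0.38 and 0.05), Bmp1 (-0.14 and -0.42), Loxl2 (-0.02 and -0.05), Ddr2 (-0.07 and -0.71), Itgb1 (-0.14 and 0.33), Egr1 (-0.16 and -0.81), Runx2 (-0.24 and -0.12) and Tmem38b (-0.11 and -0.17).

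**Figure D5:**
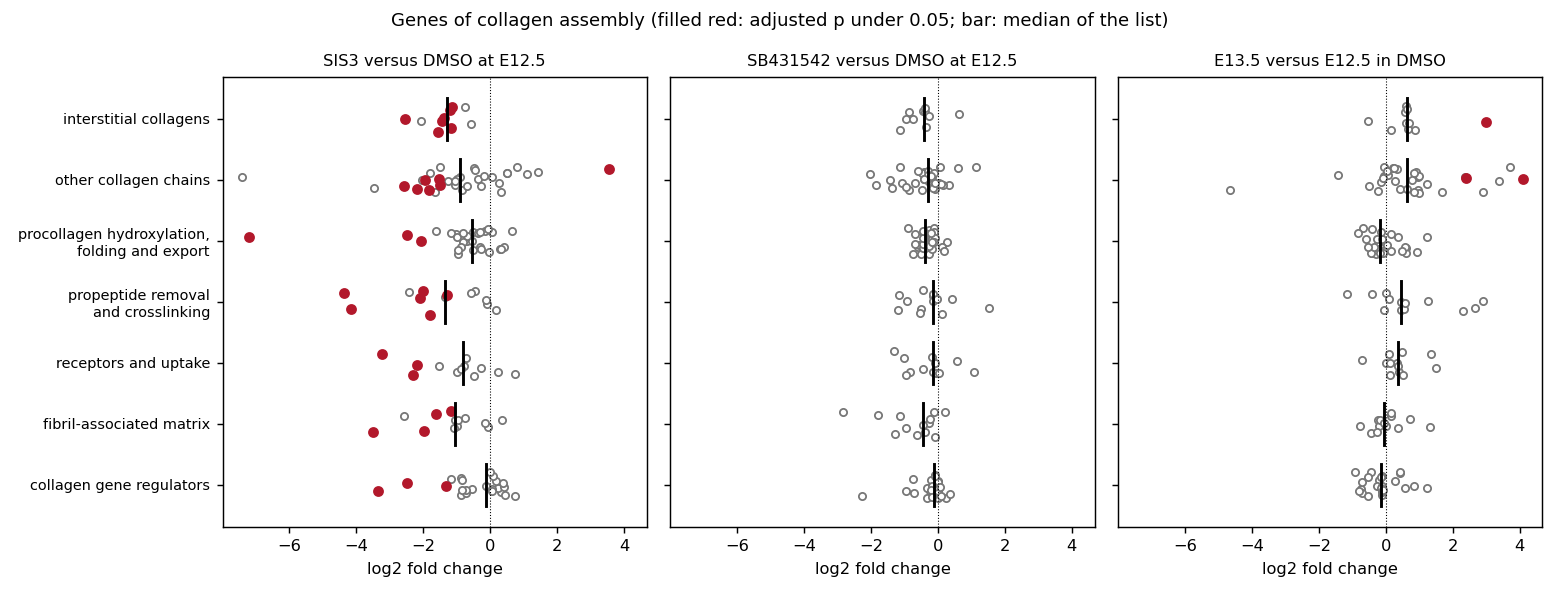
Log2 fold changes (horizontal axis) of the genes of 7 collagen lists in 3 comparisons against E12.5 DMSO, with filled points for genes that passed and a bar at the median of each list. The SIS3 medians of the interstitial collagens (-1.29) and of maturation genes (-1.33) are the lowest.

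With SIS3, markers of several other cell types were lower as well, and those of others were not. Osteoblast markers, a cell type rich in type I collagen, summed to 48.5 and 87.7 CPM with SIS3, 189.9 with SB431542, 788 at E13.5 and 336 in E12.5 DMSO, and 4 of 8 fell with SIS3. Ibsp and Ifitm5 were at 0 in SIS3 library 1, and Bglap in both SIS3 libraries and in the E13.5 library. Sp7 stands in this list and among the regulators. Endothelial markers summed to 42.0 and 36.3 CPM with SIS3, 469 with SB431542, 418 at E13.5 and 398 in E12.5 DMSO, with 8 of 8 lower with SIS3. Pericyte markers summed to 385 and 399 CPM with SIS3, 535 with SB431542, 615 at E13.5 and 652 in E12.5 DMSO. Of the 11 dental mesenchyme markers 2 fell with SIS3, Vim and Dlx2. Macrophage markers summed to 5.84 and 3.82 CPM with SIS3, 38.6 with SB431542, 97.4 at E13.5 and 53.8 in E12.5 DMSO, and 4 of 8 fell with SIS3. Skeletal muscle markers fell in 3 of 8, pericyte markers in 3 of 7 and erythroid markers in 1 of 8, and chondrocyte, epithelial and neural markers in 0. Des, which fell, stands in both the skeletal muscle and the pericyte list. The erythroid gene that fell was Hba-a2 (-3.25, SE 0.40), whereas Hba-a1 had 1.05 (SE 0.61) and did not pass. Only 3 of the 8 erythroid markers lay below DMSO. The part of these cell types in the collagen values was not tested.

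Genes outside the set with the most similar profile over the 5 libraries were sought among 8537 genes averaging at least 20 CPM, by the root mean square difference of centred log2 CPM. Col1a1 was followed most closely by Spon1 (0.173), Adam12 (0.191) and Zfp469 (0.229). For Col3a1 they were Nid1 (0.0524), Atp2b4 (0.0581) and Wdhd1 (0.105), and for Col6a1 Ank (0.144), Cthrc1 (0.148) and Rcn3 (0.148). Col5a3 was nearest to Olfr432 (0.212), Notch4 (0.264) and Vmn1r74 (0.406), of which Olfr432 and Vmn1r74 are receptor genes of the kind that took more counts in the E13.5 library. With 5 libraries, 2 of them from 1 treatment, this measure describes these libraries only.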

How the data were processed

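Per the submitters' processing notes, the deposited counts were made with tools that include Salmon, HISAT2 and DESeq2, on the build mm10; roles, versions, annotation and strand settings are unstated. The authors deposited estimated counts per gene as whole numbers, not scaled between libraries. Reads that match several transcripts are shared out by Salmon as estimates. At most 2.46% of the 31-mers of a member are shared with other genes. Col5a1, Col5a3 and Col12a1 overlap genes on the opposite strand, and Col1a2, Col3a1, Col5a2 and Col6a3 overlap genes on the same strand.

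Columns were matched to samples by name. Over genes with 1 transcript the median squared difference between the columns of a pair was 1.25 (SB431542), 1.22 (E13.5 DMSO) and 1.30 (E12.5 DMSO) times that of a random split, and 8.05 for SIS3. The means over the same genes were larger, at 2.81, 1.59 and 2.19 in the same order, and 24.4 for SIS3. Over genes of any transcript number the medians were 2.01, 1.61 and 2.05, and 11.4 for SIS3. Summing the first 3 pairs left 5 libraries. edgeR 4.0.16 (R 4.3.3) was run with TMM scaling, filterByExpr (19022 genes), a robust quasi-likelihood F test on the group, and Benjamini-Hochberg adjustment over all genes at 0.05. All spread comes from the SIS3 pair (1 residual degree of freedom plus 12.5 borrowed), and the fit assumes that each lone library varies like that pair. No label says that libraries stem from separate cultures, so p-values may measure technical spread only. The procedure was tested on simulated data, with every library drawn independently at the fitted spread. That test cannot show whether the lone libraries vary like the SIS3 pair.

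Gene models are GENCODE M21 (GRCm38), 1 transcript a gene. A floor of 3 counts is 0.0969 to 0.5 CPM. Intervals of count ratios, and floors, cover counting error only. The 10 members, the gene lists and the naming rule (all members, and list genes called, at most 6 in each direction by adjusted p, or else the 2 with the highest mean CPM over the libraries) were chosen with earlier results of these data known. Alternatives were DESeq2 1.42.0, RLE scaling, other filters, trends on GC and length removed, the 8 columns as replicates, left-out columns and the 2 groups alone.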

Additional observations from a re-analysis of the deposited data

How the results depend on the processing

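Directions of the 10 genes held in all comparisons under the alternatives run, except Col5a2 in SIS3 against SB431542, which was -0.20 and ran from -0.75 without SIS3 replicate 1 to 0.20 without SIS3 replicate 2. RLE scaling and no low-count filter changed no member's call. Main counts of members called were 7 (SIS3 against DMSO), 0 (SB431542), 1 (E13.5) and 3 (SIS3 against SB431542). With genes averaging at least 5 CPM these were 1, 0, 0 and 1, with GC and length trends removed 2, 0, 0 and 0, and with the 2 groups alone 3 for SIS3 against DMSO and 1 against SB431542. Without receptor genes, predicted genes and pseudogenes, an alternative chosen after seeing the data, they were 3, 0, 0 and 1. DESeq2 called 7, 0, 1 and 2. With the 8 columns as replicates they were 9, 4, 7 and 8, and with the replicate block 9, 3, 8 and 7, with the spread then taken from paired columns that are counted elsewhere as 1 sample. Deviations of same-numbered columns correlated between -0.0589 and 0.0266 across groups. Since the columns of 3 groups were counted as 1 sample each, these correlations cannot show whether the replicate numbers pair the samples. Leaving out 1 column gave 5 to 7 members for SIS3 against DMSO (5 without either E13.5 column), 0 to 1 at E13.5 (0 without either E13.5 column) and 1 to 3 for SIS3 against SB431542 (1 without E12.5 DMSO replicate 2 or either E13.5 column). Leaving out a SIS3 library leaves no residual degrees of freedom, so only values were given.

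Over all genes 727 were called with SIS3 against DMSO, 0 with SB431542, 995 at E13.5 and 465 with SIS3 against SB431542. These counts were 6764, 259, 9742 and 5805 with 8 columns and 6194, 83, 9260 and 5191 with the replicate block. Without a filter they were 1414, 27, 2062 and 1027, for genes averaging at least 5 CPM 130, 0, 192 and 85, with trends removed 339, 0, 261 and 178, and without receptor and predicted genes 332, 0, 61 and 196. The 2 groups alone gave 232 for SIS3 against DMSO and 166 against SB431542. DESeq2 called 6 with SB431542 and 572 at E13.5. Left-out columns gave 488 to 708 with SIS3 against DMSO, 0 to 1 with SB431542, 399 to 903 at E13.5 and 314 to 477 with SIS3 against SB431542. The causes were not tested. Among 5995709 counts of the smaller SIS3 library, Col5a3 has 6. At this number of libraries the intervals of the members reached a median of 0.59 to 0.70 on the log2 scale to either side. These intervals are not adjusted for the number of genes tested, so larger changes could also fail to pass. Col6a2 at -1.13 with SB431542 and Col1a2 at -0.75 with SIS3, each against DMSO, did not pass.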
